A study of Mus musculus with 4 samples.

Results

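The SLAM family and its adaptor SAP were described in RNA-seq libraries of mouse T cells, as 9 genes taken by name out of 50600 listed in the count files. The 9 are the SLAM receptor genes Slamf1, Slamf6, Slamf7, Ly9, Cd84 and Cd244a, the ligand gene Cd48, the related adhesion receptor gene Cd2, and Sh2d1a, which encodes SAP. All 9 symbols matched exactly 1 gene each. The labels give a single group of 4 biological replicates, primary T cells of the mouse strain C57BL/6NJ, with no treatment named, sex not collected and age unknown. All 4 carry the same donor identifier, and nothing says that they came from separate animals. The p-values below therefore reflect the spread among 4 samples, which edgeR pools over genes and which may be technical. The assay is labelled total RNA-seq, but the linked library protocol is named for polyA+ RNA; which RNA was sequenced is not settled by the labels and bears on the level of transcripts without a polyA tail. Another linked protocol is named for the differentiation of CD4 T cells, and the file headers, unlike the labels, add Th0, activated and 48 h. In the field, Th0 means helper T cells activated with no cytokine that steers them to a subset.

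SLAM receptors are immunoglobulin superfamily proteins of blood cells. Most bind a copy of themselves on a neighbouring cell, so that like cells in contact signal to each other. CD244 instead binds CD48, which is anchored in the membrane by a lipid and in mice is also the main ligand of CD2. The tails of most SLAM receptors carry switch motifs, short stretches around a tyrosine that, once phosphorylated, bind the small adaptor SAP. SAP brings in the kinase FYN and keeps phosphatases from the same sites. Loss of SAP in people causes an X-linked immune disease with uncontrolled Epstein-Barr virus infection, and mice without it lack natural killer T cells and make poor follicular helper T cells.

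Read pairs assigned to genes ranged from 45110199 to 127755788 per library, with replicate 3 the deepest and replicate 2 the shallowest. All 8 T cell markers lay above a level of 1 CPM (CPM being read pairs scaled to the library total), and Cd4 averaged 792 TPM ± 15.0 (SD, n = 4), where TPM is a count corrected for gene length and library. Of 5 markers of CD8 T cells, 2 lay above 1 CPM, Cd8b1 at 22.3 TPM ± 1.62 and Eomes, while Cd8a stayed between 0.187 and 0.461 TPM and Gzmk had no count.

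The switch motif was looked for in the longest complete coding sequence of every protein-coding gene (GENCODE M21), as a threonine codon, any codon, a tyrosine codon, any pair of codons and a codon for valine or isoleucine. At least 1 match was present in 7.96% of 21486 genes and at least 2 in 0.610%. Among the 9 genes, 7 had at least 1 match and 5 had at least 2: Slamf1, Slamf6, Ly9 and Cd84 with 2 each, and Cd244a with 4. Slamf7 had 1 match. The match in Cd48 lay at codon 107 of 240, in the part of the protein outside the cell, and CD48 has no tail inside it. Cd2 and Sh2d1a had none. In the 6 other receptor genes all 13 matches lay in the coding part of the tail, at most 131 codons from the end.

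The 9 motifs of the 5 receptors that these cells expressed above 1 CPM are shown because switch motifs are the kind of site to which SAP and its relative EAT-2 bind. SLAMF7 is known to signal through EAT-2 and not through SAP, and no binding was measured here. Each is given 5′ to 3′ on the coding strand as 30 bases of coding sequence, with the threonine, tyrosine and valine or isoleucine codons in capitals. All lie on chromosome 1 of GRCm38, the mm10 assembly.
Slamf1 codon 288, chr1:171792333-171792362, plus strand: agccttACTattTATgcccaaGTAcagaaa
Slamf1 codon 335, chr1:171799582-171799611, plus strand: cccaccACAgttTATgccagtGTGacactg
Slamf6 codon 295, chr1:171939431-171939460, plus strand: gggaacACTgtgTATgcacaaGTCactcgt
Slamf6 codon 319, chr1:171941658-171941687, plus strand: tccatgACAattTACtccataGTTaatcat
Cd84 codon 265, chr1:171884599-171884628, plus strand: aagaaaACAgtaTATgctgtaGTTtcaaga
Cd84 codon 300, chr1:171885595-171885624, plus strand: gtgaccACCattTATtcctcaGTGcagctt
Ly9 codon 587, chr1:171593906-171593935, minus strand: gcaatcACTccaTATgataaaGTGgatggg
Ly9 codon 625, chr1:171593432-171593461, minus strand: tcaaatACAatcTACtgctctGTGcagaag
Slamf7 codon 302, chr1:171636321-171636350, minus strand: ccaaacACAtttTATtccactGTGcagatc
Each of these stretches lies within 1 coding exon.

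**Figure D1:**
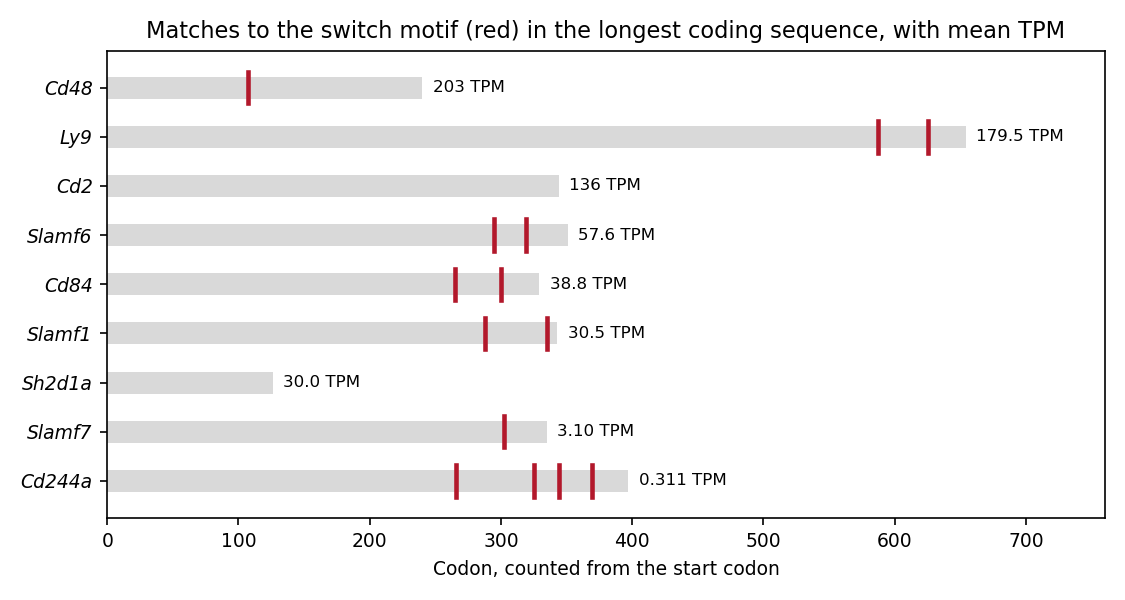
Bars give the length in codons of the longest coding sequence of each gene, red lines the tyrosine codon of each match to the switch motif, and the numbers the mean TPM over 4 libraries. The matches of Ly9, Slamf6, Cd84, Slamf1 and Slamf7 lie at most 67 codons from the end, the first of Cd244a 131 and that of Cd48 133 codons from it, and the gene with the most matches, Cd244a, has the lowest level at 0.311 TPM.

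Annotated isoforms differ in these motifs, and counts per gene do not tell them apart. Of 5 complete coding transcripts of Slamf7, 3 held the motif and the others none. Cd84 had both motifs in 3 of 4 transcripts, and Slamf6 in 2 of 3, with at least 1 motif in the remaining one. All 3 transcripts of Ly9 kept both.

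Of the 9 genes, 8 lay above 1 CPM and 1, Cd244a, below it by edgeR's quasi-likelihood test with Benjamini-Hochberg adjustment over all 23365 genes with a count. Over all those genes, protein-coding or not, 48.0% lay above and 48.5% below. The share above 1 CPM was not counted for protein-coding genes alone. Their median was 18.1 CPM, against 0.902 CPM over all genes tested. The 9 genes had a median of 38.8 TPM, against 1.80 TPM over all genes tested and 14.2 TPM over the 15076 protein-coding ones. These medians describe the set and were not tested.

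**Figure D2:**
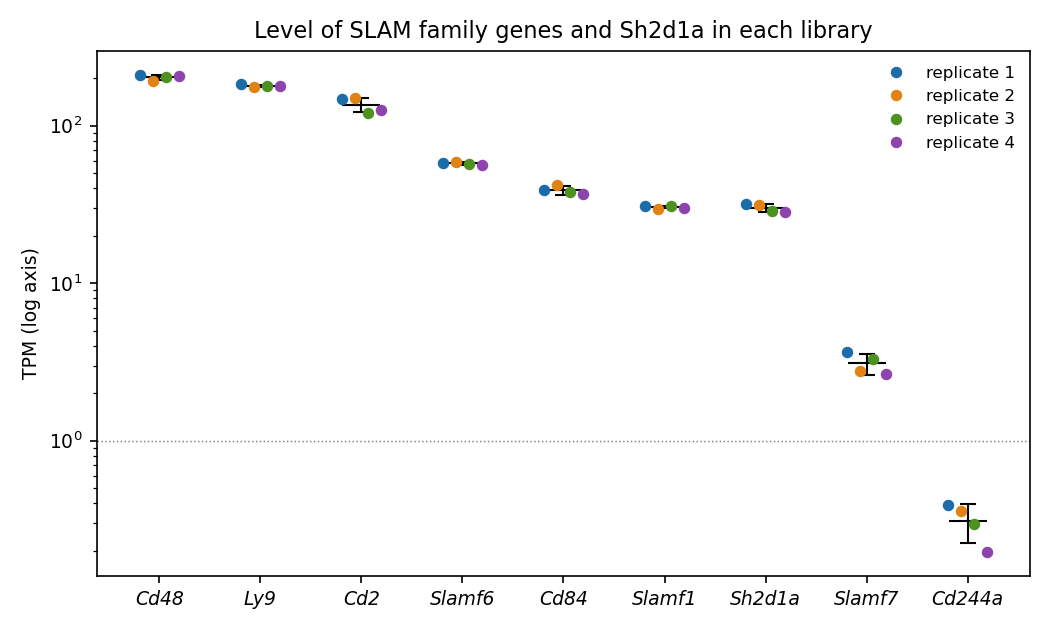
Points are TPM in each of 4 libraries on a log axis, with the mean and SD in black and a dotted line at 1 TPM. Cd48, Ly9 and Cd2 lie at 121 to 211 TPM, 4 genes at 28.2 to 59.0 TPM, Slamf7 at 2.66 to 3.68 TPM and Cd244a at 0.197 to 0.393 TPM.

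Among the receptors that bind themselves, Ly9 was the most abundant in TPM with the files' exon length, while Slamf6 was higher in CPM and Cd84 was level with Ly9 when transcript lengths were used. Ly9, the largest receptor of the family (ENSMUSG00000004707.14, chromosome 1, 171588624 to 171607410, mm10, minus strand), had 183, 177, 179 and 179 TPM in replicates 1 to 4, averaging 179.5 TPM ± 2.59 (SD, n = 4). Its libraries were nearly level, and the mean lay above 92.9% of the protein-coding genes with a count.

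Slamf6, a receptor of T, B and natural killer cells (ENSMUSG00000015314.10, chromosome 1, 171917515 to 171953170, plus strand), had 57.7, 59.0, 57.4 and 56.4 TPM, averaging 57.6 TPM ± 1.08 (SD, n = 4). Cd84, which in mice stabilises contacts between T and B cells (ENSMUSG00000038147.13, chromosome 1, 171839697 to 171890718, plus strand), had 38.8, 42.1, 37.7 and 36.8 TPM, averaging 38.8 TPM ± 2.32. Slamf1, the founding member of the family, encodes CD150 (ENSMUSG00000015316.11, chromosome 1, 171767127 to 171801184, plus strand); it had 31.0, 29.8, 30.9 and 30.2 TPM, averaging 30.5 TPM ± 0.559. The libraries of Slamf6, Cd84 and Slamf1 formed 3 separate ranges with no overlap. Replicate 2 was the highest library for both Slamf6 and Cd84 and the lowest for Slamf1.

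Slamf7, which is best known on natural killer and plasma cells (ENSMUSG00000038179.13, chromosome 1, 171632403 to 171653035, minus strand), was low. It had 3.68, 2.77, 3.28 and 2.66 TPM, averaging 3.10 TPM ± 0.471 (SD, n = 4), from 281, 167, 552 and 190 read pairs. It still lay above 1 CPM, at 4.13 CPM ± 0.632 (edgeR adjusted p = 1.02e-78, limma adjusted p = 4.39e-08, higher in 4 of 4 libraries). Replicates 1 and 3 were the higher libraries.

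Cd244a, the receptor for CD48 on natural killer and activated CD8 T cells (ENSMUSG00000004709.14, chromosome 1, 171559193 to 171609746, plus strand), had 32, 23, 53 and 15 read pairs, or 0.393, 0.358, 0.296 and 0.197 TPM. At 0.442 CPM ± 0.123 (SD, n = 4) it lay below 1 CPM in 4 of 4 libraries (edgeR adjusted p = 0.000567). The gene spans the whole of Ly9 on the opposite strand, with 0 exon bases in common, and Ly9 had 7717 to 21782 read pairs. Counting was by strand.

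Markers of other cells, some of which can carry Slamf7 or Cd244a, were mostly below 1 CPM. Of the 5 markers of CD8 T cells, which can carry Cd244a, 2 lay above 1 CPM, Cd8b1 at 22.3 TPM and Eomes. Of 7 natural killer cell markers, 1 lay above 1 CPM, Eomes at 1.93 TPM ± 0.327, a transcription factor gene that T cells also use. Klra8 and Klre1 had no count, Ncr1 had 2 read pairs over all libraries and Klrb1c had 4. The summed level of the 7 ranged from 1.48 to 2.28 TPM, nearly all of it Eomes. Of 7 B cell markers, 1 lay above 1 CPM (Ebf1) and the sum ranged from 3.61 to 6.48 TPM. The 8 myeloid markers, with Adgre1 above 1 CPM, summed to 3.25 to 4.07 TPM with Lyz2 and S100a8 at 0, the 6 dendritic cell markers, with Zbtb46 above, to 1.99 to 3.05 TPM with Itgax and Clec9a at 0, and the 4 platelet markers to 0.278 to 1.02 TPM with Pf4, Gp9 and Ppbp at 0. The part of these cells in the level of Slamf7 or Cd244a was not tested. In bulk RNA, a few cells with much of a transcript and many cells with little cannot be told apart.

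Cd48 and Cd2, a ligand and its receptor, were both abundant. Cd48 (ENSMUSG00000015355.13, chromosome 1, 171682009 to 171705258, plus strand) had 211, 193, 203 and 208 TPM, averaging 203 TPM ± 8.02 (SD, n = 4), the highest mean of the 9 with the files' exon length. Cd2, whose product strengthens adhesion between T cells and their partners (ENSMUSG00000027863.8, chromosome 3, 101275899 to 101287939, minus strand), had 147, 149.9, 121 and 126 TPM, averaging 136 TPM ± 14.6. Replicates 1 and 2 were high and replicates 3 and 4 low. The ratio of Cd48 to Cd2 was 1.43, 1.28, 1.67 and 1.65 in replicates 1 to 4, and between 0.852 and 1.11 with transcript lengths, so which of them was higher depends on the length used. Of the pair of genes for CD48 receptors, Cd2 lay above and Cd244a below 1 CPM. Cd48 exceeded Cd244a 536-fold to 1052-fold in TPM, 415-fold to 813-fold with transcript lengths and 131-fold to 256-fold in CPM. These ratios rest on 15 to 53 read pairs of Cd244a per library.

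Sh2d1a, the SAP gene (ENSMUSG00000005696.11, chromosome X, 42502453 to 42529330, plus strand), had 31.9, 31.4, 28.6 and 28.2 TPM, averaging 30.0 TPM ± 1.87 (SD, n = 4), and lay above 62.6% of protein-coding genes. Replicates 1 and 2 were again above replicates 3 and 4. Some of its exon bases (1465 of 5505) overlap Tenm1 on the opposite strand, which had at most 2 read pairs in any library. The 6 receptors with switch motifs summed to 309.9 TPM ± 3.99, which was 10.3 ± 0.525 times the level of Sh2d1a (n = 4). The files' gene length for Sh2d1a counts every annotated exon, and with the 883 bases of its transcript with the longest coding sequence in place of those 5505, and likewise for the receptors, that ratio was 3.56 ± 0.150.

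The other adaptor and receptor genes of the family were low or had no count. Sh2d1b1, an EAT-2 adaptor gene of natural killer cells, had 0, 15, 9 and 13 read pairs and lay below 1 CPM at 0.162 CPM ± 0.153 (SD, n = 4). Its neighbouring copy Sh2d1b2 had none, and the 2 share a stretch of 190 bases, so reads from that stretch are uncertain. Slamf8, which in mice acts mainly in macrophages, had no count, which allowed at most 0.067 CPM in the shallowest library, for counting error only. Slamf9 had 70, 75, 106 and 39 read pairs, or 1.11 CPM ± 0.425, and was called neither above nor below 1 CPM.

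**Figure D3:**
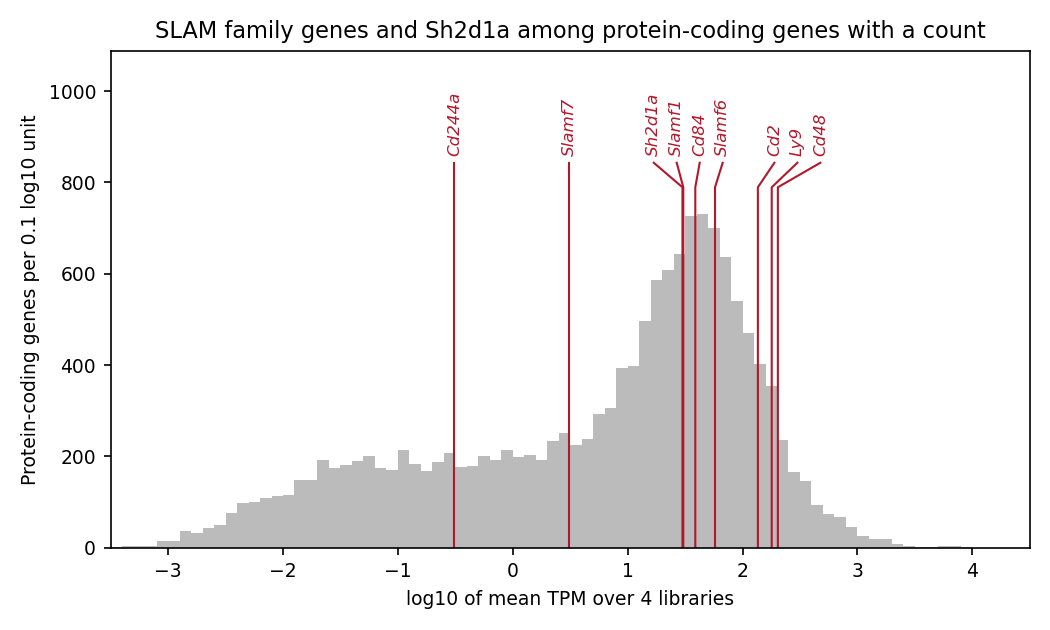
Grey bars count the protein-coding genes with any read pair by log10 of mean TPM, and red lines mark the 9 genes. Cd48, Ly9 and Cd2 stand on the upper shoulder, and Slamf6, Cd84, Slamf1 and Sh2d1a near the peak. Slamf7 and Cd244a stand lower, above 35.7% and 22.2% of these protein-coding genes.

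In order of mean TPM the genes ran Cd48, Ly9, Cd2, Slamf6, Cd84, Slamf1, Sh2d1a, Slamf7 and Cd244a. Within each library the difference between neighbours on the scale of log2(TPM + 0.1) kept its direction in 4 of 4 libraries for 7 of 8 neighbours. Slamf1 and Sh2d1a were not told apart (difference 0.02 ± 0.09, 2 of 4 libraries in each direction, exact sign-flip p = 0.75). The closest of the others, Cd48 over Ly9, differed by 0.18 ± 0.04 and Cd84 over Slamf1 by 0.35 ± 0.10. The widest gaps were Sh2d1a over Slamf7 at 3.25 ± 0.19 and Slamf7 over Cd244a at 2.97 ± 0.25. An exact two-sided sign-flip test on 4 libraries cannot give a p below 1 in 8, which all 7 reached. The order within the upper 7 depends on gene length: with the length of the transcript that has the longest coding sequence, Cd84 and Ly9 both came to 239 TPM, above Cd2 at 206 and Cd48 at 204, and Sh2d1a reached 187, above Slamf6 at 109 and Slamf1 at 69.7. Only the lengths of these genes were changed, so the values with transcript length are not strictly TPM. The read pairs were still those of all annotated exons, and the library scaling kept the files' lengths. For Cd84, read pairs from 6272 exon bases were divided by 1019 bases. Slamf7 and Cd244a were the lowest in CPM and with either length, at 8.84 and 0.403 TPM with the transcript length.

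Ly9, Cd48 and Cd2 together gave 79.9% ± 0.487 of the summed TPM of the 8 receptor and ligand genes (n = 4). Cd48 alone gave 31.3% ± 1.34, Ly9 27.7% ± 0.599 and Cd2 20.9% ± 1.78. Slamf6 followed with 8.87% ± 0.228, Cd84 with 5.98% ± 0.321 and Slamf1 with 4.70% ± 0.144. Slamf7 came to 0.476% ± 0.0658 and Cd244a to 0.0477% ± 0.0122. These shares depend on the length used. With transcript lengths Ly9, Cd48 and Cd2 gave 60.3% ± 0.838, Cd84 22.2% ± 0.903, Cd48 19.0% ± 1.04 and Slamf7 0.822% ± 0.117. In CPM, with no length, Ly9, Cd48 and Cd2 gave 49.4% to 50.8% and Slamf6 29.1% ± 0.425.

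Among the 15075 other protein-coding genes with a count, those nearest to Cd48 over the 4 libraries were Insig1 and Timm50, with a root mean square difference of 0.025 and 0.033 on the log2(TPM + 0.1) scale. Nearest to Sh2d1a were Adamts6 and Decr2, at 0.020 and 0.023. The measure compares levels within a single group, so it picks genes of like level. Shared regulation was not tested.

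**Figure D4:**
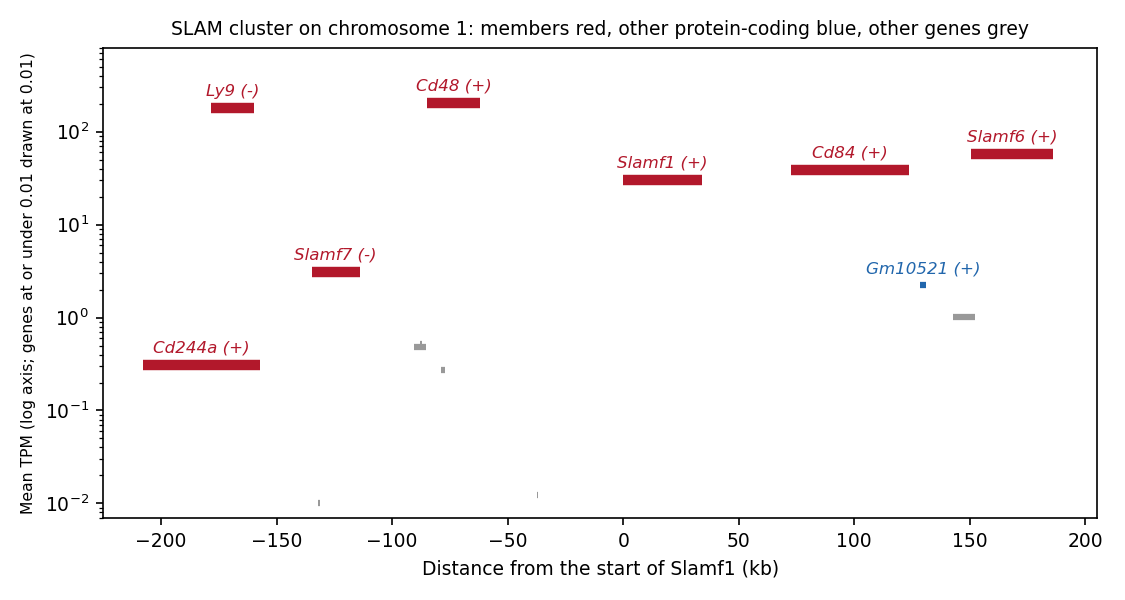
Each bar is a gene of the chromosome 1 cluster, placed by distance in kb from the start of Slamf1 and by mean TPM on a log axis, with the strand beside its name. Cd244a at 0.311 TPM covers the position of Ly9 at 179.5 TPM, and Slamf7 at 3.10 TPM lies between Ly9 and Cd48.

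The members on chromosome 1 are neighbours. The 7 lie within 394 kb (171559193 to 171953170), in the order Cd244a, Ly9, Slamf7, Cd48, Slamf1, Cd84 and Slamf6. Among the 19 genes wholly inside that span, 8 are protein-coding and all but Gm10521 are members. Gm10521 stood at 2.22 TPM ± 0.656 (SD, n = 4), above 1 CPM. Of the 12 genes that are not members, 1 lay above 1 CPM, 6 below and 5 had no count. Levels along the cluster were uneven: Ly9 at 179.5 TPM lies beside Cd244a at 0.311 and Slamf7 at 3.10.

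By the median, replicates differed for the 9 genes as much as for all genes tested. The median SD of log2 CPM was 0.09 for them, with a range of 0.03 to 0.44, and 0.09 over the 13279 genes tested. None of the 9 passed edgeR's goodness-of-fit test of variation beyond that of genes of like abundance (0 of 9, against 0.422% of all genes), and 1 of the 9 had an unadjusted p below 0.05, against 5.80%. That gene was Cd2, with an SD of 0.17, an unadjusted p of 0.00177 and an adjusted p of 0.228. Its replicates 1 and 2 lay 0.13 and 0.15 above its mean log2 CPM, and replicates 3 and 4 lay at -0.18 and -0.11. Sh2d1a had the same signs, at 0.10, 0.07, -0.08 and -0.08, with an SD of 0.10 and an adjusted p of 1.00. Slamf1, Slamf6 and Ly9 had an SD of 0.03. The largest SD, 0.44, was that of Cd244a, where counting error alone gives a coefficient of variation of 19.5% per library, against 27.9% observed.

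**Figure D5:**
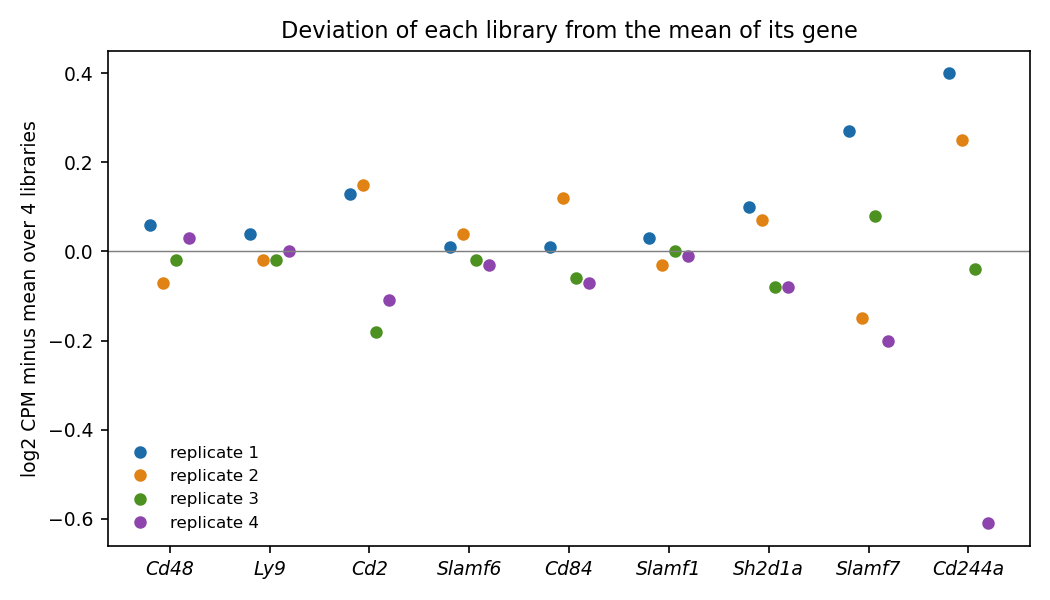
Points are log2 CPM in each library minus the mean of its gene over 4 libraries, genes ordered by mean TPM. Slamf1, Slamf6 and Ly9 stay within 0.04 of 0, Cd2 splits into replicates 1 and 2 above and 3 and 4 below, and Cd244a reaches -0.61 in replicate 4.

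Genes that act after SAP were expressed. All 10 members of the list of SAP and SLAM signalling genes lay above 1 CPM, against 48.0% of all genes tested. Their median was 65.3 TPM, against 1.80 TPM over all genes tested and 14.2 TPM over the protein-coding ones. The 48.0%, here and for the lists that follow, is over genes of every type. Protein-coding genes had a median of 18.1 CPM, so it is a low measure for lists of such genes. Neither this list nor those that follow was tested as a set. The kinase gene Fyn, whose product SAP binds, had 219, 221, 229 and 225 TPM, averaging 223 TPM ± 4.53 (SD, n = 4), 799th among protein-coding genes. Lck, the other main Src family kinase gene of T cells, averaged 747 TPM ± 9.17. Nfkb1, an NF-kB subunit gene, stood at 384 TPM ± 16.4, the guanine exchange factor gene Vav1 at 167 TPM ± 1.57, Prkcq (protein kinase C theta) at 57.0 TPM ± 2.72 and Bcl10 at 54.5 TPM ± 1.15. Pak1, a kinase gene, was lowest of the list at 6.08 TPM ± 0.469.

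The phosphatase genes whose products can bind switch motifs in the absence of SAP were also expressed, with 4 of 4 listed genes above 1 CPM, against 48.0% of all genes, the kinase gene Csk included. Ptpn6 (SHP-1) averaged 561 TPM ± 21.5 (SD, n = 4), Csk 368 TPM ± 14.3, Ptpn11 (SHP-2) 150.3 TPM ± 5.74 and Inpp5d (SHIP-1) 51.7 TPM ± 2.89. Of the 5 genes for partners of the CD2 tail, all lay above 1 CPM, beside the same 48.0%. Was, the actin regulator gene of Wiskott-Aldrich syndrome, stood at 149 TPM ± 6.64, Cd2bp2 at 127 TPM ± 2.17, Cd2ap at 61.5 TPM ± 1.74, Pstpip1 at 60.7 TPM ± 1.81 and Wasl at 10.6 TPM ± 0.897.

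Of 8 genes of programmes that need SAP in mice, 5 lay above 1 CPM and 3 below, shares near the 48.0% above and 48.5% below of all genes tested. The follicular helper genes Pdcd1 and Icos averaged 533 TPM ± 13.7 and 151 TPM ± 8.73 (SD, n = 4), while Bcl6, the factor gene that directs that programme, stood at 9.96 TPM ± 0.683 and the homing receptor gene Cxcr5 at 2.94 TPM ± 0.589. Its cytokine gene Il21 had 4, 0, 3 and 3 read pairs. Gata3, the Th2 factor gene, averaged 35.5 TPM ± 2.52, and the cytokine gene Il4 lay below 1 CPM with 0.334, 0.599, 0.524 and 0.375 CPM (edgeR adjusted p = 0.000682, lower in 4 of 4 libraries). Zbtb16, the factor gene of natural killer T cells, had 2 read pairs, both in replicate 3.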

How the data were processed

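Each deposited file holds whole-number counts, read pairs assigned to each gene. Per the file headers, the authors made them with featureCounts 1.4.6-p4 over exons of GENCODE M13, by strand (option 2), with both ends mapped, and with no option set to count reads at several places or in several genes. The headers name STAR without a version, and the assembly is mm10 per the labels. Exon lengths are those deposited beside the counts.

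Symbols and transcripts came from GENCODE M21 (50376 of 50600 genes matched). CPM and TPM were computed from the counts. A gene's level was tested against 1 CPM with edgeR 4.0.16 (quasi-likelihood, intercept only, library totals as offset, deviance against the fixed level, two-sided, adjusted p below 0.05). The prior degrees of freedom were 447, so the p-values rest on the spread pooled over genes. For Cd48, Ly9, Cd2, Slamf6, Cd84, Slamf1 and Sh2d1a the p was too small to represent. Variation used TMM scaling and edgeR's goodness-of-fit (gof) function with dispersions from the trend. Both tests were first tested on simulated data. The level test recovered 100% of genes set at 0.25, 0.5, 2.0 or 4.0 CPM. The variation test recovered 61% of genes given an extra SD of 0.5 log2 units and 95% at 1.0, so it can miss smaller variation. Extra variation was given only to genes with more read pairs than Cd244a.

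Alternatives used limma 3.58.1 and DESeq2 1.42.0. Transcripts were compared with blastn 2.17.0+ at 95% identity. Scripts ran in R 4.3.3 and in python 3.11.15 with numpy 2.4.6, pandas 2.3.3 and matplotlib 3.10.9. Slamf1 has a transcript with a retained intron that matches transcripts of 126 other genes over up to 209 bases. The members and lists were chosen with earlier results of these data known. Genes named are the members, the listed genes, genes inside the chromosome 1 cluster, and the 2 genes nearest to the highest member and to Sh2d1a. Tenm1 was named for its overlap.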

Additional observations from a re-analysis of the deposited data

How the results depend on the processing

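The calls of all 9 genes against 1 CPM held under all 12 alternatives (TMM or DESeq2 scaling, DESeq2's Wald test, limma with either pseudocount, an expression filter, 1 TPM or 2 CPM as the threshold, and each replicate left out), in 108 of 108 values. With the filter, 1290 of all genes lay below 1 CPM, against 11333, since fewer genes were tested. The number of variable genes, 56, was 873 at the common dispersion and 33 to 40 with 1 replicate left out, with none of the 9 among them. Without replicates 1, 3 or 4 it moved by more than 1.5 times; the cause was not tested.

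The order of levels turned on length. In CPM, Cd48 over Ly9 was -1.30 and Cd2 over Slamf6 -1.40 (log2). With transcript lengths, an alternative chosen after seeing the data, Cd48 over Ly9 was -0.23, Slamf6 over Cd84 -1.13 and Slamf1 over Sh2d1a -1.42. Slamf1 over Sh2d1a was -0.01 to 0.06 with 1 replicate left out, -0.01 without replicate 3 and -0.00 without replicate 4. No paired analysis was possible because the labels give a single group. Depth limits Cd244a and Slamf7 most, at 15 to 53 and 167 to 552 read pairs.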
